A study of Mus musculus with 35 samples.

Results

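The 10 genes described here carry antigen presentation by major histocompatibility complex (MHC) class II and the signals that go with it, and they were measured in bone marrow-derived macrophages (BMDMs). They are the class II chains H2-Aa, H2-Ab1 and H2-Eb1, the invariant chain Cd74, the class II transactivator Ciita, the costimulatory ligands Cd80 and Cd86, the receptor Cd40, and the PD-1 ligands Cd274 and Pdcd1lg2. They were taken by symbol from the 47069 Ensembl gene identifiers of the deposited tables, and each symbol matched a single identifier. Of the 10 genes, 9 had a mean of at least 1 FPKM (fragments per kilobase of exon, scaled to library size) over all libraries and were tested, while Pdcd1lg2 had a mean of 0.477 FPKM and is given by its values alone. The series held 35 RNA-seq libraries in 12 groups, made of 2 genotype labels, WT and AMPKα1-/-, and 6 treatments. BMDMs were grown from the marrow of femur and tibia of mice labelled C57BL/6, in medium with L929-conditioned medium, and each group received for 24 h vehicle (DMSO), dexamethasone (Dex, 100 nM), lipopolysaccharide (LPS, 100 ng/ml), LPS + Dex, DAMPs (1 µg/ml) or DAMPs + Dex. Dexamethasone is a synthetic glucocorticoid, LPS is a bacterial ligand of the receptor TLR4, and DAMPs are damage-associated molecular patterns, whose composition is not given in the sources used here. Each group had 3 libraries, except WT LPS, which had 2. The study takes its N values as cultures of individual mice where it says nothing else, and it pooled mice for its metabolic flux measurements. The AMPKα1-/- label refers to a catalytic subunit of AMP-activated protein kinase, encoded by Prkaa1, and the allele is not given in the sources used here. Library totals ran from 15837203 to 31955298 fragments, so that 1 fragment on 1 kb of exon was worth 0.0313 to 0.0631 FPKM.

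MHC class II molecules are pairs of an α and a β chain that show peptides from ingested material to CD4+ T cells. H2-Aa and H2-Ab1 encode the α and β chain of one mouse molecule, and H2-Eb1 the β chain of the other, whose α chain comes from H2-Ea. CD74 holds the new pair and takes it to the endosome, where H2-DM exchanges the bound remnant of CD74 for a peptide, a step that H2-DO restrains. CIITA binds no DNA itself but joins the factors RFX, CREB and NF-Y that sit on the X and Y boxes of class II promoters, and its own level sets that of the class II genes. CD80 and CD86 bind CD28 and CTLA-4 on the T cell, CD40 receives the T cell's CD40L, and CD274 (PD-L1) and PDCD1LG2 (PD-L2) restrain it through PD-1. Macrophages carry a low level of class II at rest that interferon-γ raises, and glucocorticoids are known for lowering antigen presentation.

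The X and Y boxes could be read in the promoters of RefSeq on build GRCm38.p6 (250 bases before to 50 after each gene's start), which held 5 of the 10 genes (H2-Aa, H2-Eb1, Cd80, Cd274 and Pdcd1lg2) and 50 of 69 companion genes of the same pathways. The letters searched on both strands were GNAAC, a core of the X box, followed after 20 to 30 bases by GATTGG, the Y box, a spacing chosen after the sequences were seen. This pair was in 0.651% of the 32851 promoters, while GNAAC alone was in 84.8% and GATTGG alone in 16.1%. It was in 2 of the 5 promoters described here, those of H2-Aa and H2-Eb1, and in 4 of the 50 companions (H2-DMb1, H2-Oa, H2-Ob and H2-Eb2). The stretches below, written 5′ to 3′ on the gene's own strand with both boxes in capitals, are shown because these genes share the boxes and differed in their response to LPS.
H2-Aa: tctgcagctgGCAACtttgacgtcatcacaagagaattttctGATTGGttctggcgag
H2-Eb1: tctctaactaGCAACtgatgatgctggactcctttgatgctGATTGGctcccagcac
H2-DMb1: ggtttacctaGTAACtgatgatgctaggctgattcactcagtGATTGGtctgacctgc
H2-Oa: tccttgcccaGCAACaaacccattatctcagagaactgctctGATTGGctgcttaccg
H2-Ob: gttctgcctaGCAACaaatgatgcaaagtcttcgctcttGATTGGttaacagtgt
The H2-Aa stretch lay at chr17:34287857-34287914 on the minus strand and the H2-Eb1 stretch at chr17:34305766-34305822 on the plus strand. The other plus-strand stretches were at chr17:34153087-34153144 for H2-DMb1, chr17:34092293-34092350 for H2-Oa and chr17:34238808-34238862 for H2-Ob. In all 5 the match was on the gene's own strand, and 24 to 27 bases separated the X box core from the Y box. The order of the boxes and the range of 20 to 30 bases were set by the search. A match is a description of letters and was not tested for binding.

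On GRCm38 the class II chain genes lay together on chromosome 17, H2-Ab1 at chr17:34257689-34269419, H2-Aa at chr17:34282744-34287823 and H2-Eb1 at chr17:34305867-34316674. Chromosome 16 held Ciita at chr16:10480059-10528418, Cd86 at chr16:36603869-36666081 and Cd80 at chr16:38455561-38496335, and chromosome 19 held the neighbours Cd274 at chr19:29367455-29388095 and Pdcd1lg2 at chr19:29410919-29471161. Cd40 was at chr2:165055627-165072948 and Cd74 on chromosome 18, and all 10 genes were annotated as protein coding. Exons of Ciita and Cd274 overlap those of an antisense gene (Dexi and AC119228.1), and whether the counting used strand is not given in the sources used here.

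Several libraries stood apart from their labels, and these values stand before the results for that reason. Prkaa1 was not lower in vehicle libraries labelled AMPKα1-/-, at 14.8, 16.5 and 15.4 FPKM, against 15.9, 11.8 and 15.3 FPKM in WT. Over all 6 treatments it was at 9.05 to 23.997 FPKM in AMPKα1-/- and 8.59 to 26.1 FPKM in WT. A value for the whole gene also counts exons outside a deleted part, so the label is used here as a label only. The Dex label went with Tsc22d3, a direct glucocorticoid target, at 724, 667 and 736 FPKM in WT Dex against 54.3, 51.7 and 54.6 FPKM in WT vehicle. The LPS label went with Nos2, the inducible nitric oxide synthase, at 35.7 and 134 FPKM in WT LPS against 0.01297, 0.0142 and 0.0597 FPKM in WT vehicle, and WT LPS + Dex had 0.195, 0.1296 and 1.11 FPKM.

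The H2 complex itself differed between libraries of the same group. C57BL/6 mice are known to make no H2-Ea transcript, yet H2-Ea-ps, the row for H2-Ea, reached 880.4 FPKM. Its ratio to Cd74 was at most 0.00636 in 9 libraries (0 to 1.37 FPKM) and at least 0.0131 in all others. WT LPS + Dex replicates 2 and 3, with 1.35 and 1.27 FPKM, overlapped the 9 in FPKM but not in the ratio. The 9, called low in H2-Ea-ps here, were WT replicate 1 with Dex, LPS + Dex, DAMPs and DAMPs + Dex, and replicate 3 labelled AMPKα1-/- in every treatment but DAMPs. H2-Q7, a class I gene, was near 0 (0 to 0.181 FPKM) in 17 other libraries, which were all those of WT replicate 2, all those of AMPKα1-/- replicate 2 and AMPKα1-/- replicate 1 except with DAMPs + Dex. The last 9 libraries had both genes (H2-Q7 at 2.01 to 265.1 FPKM), and they included every WT replicate 3. With LPS, H2-Q7 was at 0.181 and 265.1 FPKM in the 2 WT libraries, both labelled C57BL/6. Classes were set from the ratios of H2-Ea-ps to Cd74 and of H2-Q7 to H2-K1, after the data were seen, and calls that were lost or gained without the 9 or the 17 are given beside the results. Cd74 is also a tested gene of the set. Fits with the H2 class as a term are therefore not independent of the values they test, and calls gained with it are given as a description. Without the 17, WT LPS and every AMPKα1-/- group but DAMPs + Dex kept 1 library, which limma assumes to vary like the other groups. Calls that involve these groups then rest on single libraries. What these classes stand for and their part in the class II levels were not tested. Whether some mice had another H2 background, or some labels were exchanged or wrong, was also not tested. Group, pair and genotype values here take the labels as given.

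Glucocorticoid alone lowered the class II side of the set, Cd40 and Cd274, with no call for the B7 ligands. In WT, 7 of the 9 tested genes fell with Dex against vehicle and none rose (limma on log2(FPKM + 1), Benjamini-Hochberg adjusted p under 0.05), where 30.9% of all 11354 tested genes were called. The same 7 of 9 fell in libraries labelled AMPKα1-/-, where 27.9% of genes were called. They were the 3 class II chains, Cd74, Ciita, Cd40 and Cd274, and the 2 that were not called were Cd80 and Cd86. Every Dex library was below every vehicle library for 7 of the 9 in WT and 7 in AMPKα1-/-, where the same held for 22.1% and 26.1% of all tested genes. In WT it also held for Pdcd1lg2, which was too low to be tested. Without the 9 libraries low in H2-Ea-ps the counts were 7 in WT and 7 in AMPKα1-/-, and without the 17 low in H2-Q7 they were 7 and 5, Cd74 (adjusted p = 0.187) and Cd274 (adjusted p = 0.184) being lost where AMPKα1-/- then kept 1 library a group. In bulk libraries a lower value cannot be told apart between fewer cells of a kind and less RNA in each cell.

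LPS split the set. In WT, 3 of the 9 rose (Cd40, Cd274 and Cd86) and 4 fell (H2-Aa, H2-Eb1, Cd74 and Ciita), with 55.7% of all genes called. In AMPKα1-/- 2 rose (Cd40 and Cd274) and the same 4 fell, with 64.3% called. Because most tested genes were called in these comparisons, the number of calls is not particular to the set, and the sizes given gene by gene below carry the description. The median of all genes moved by -0.19 in WT and -0.297 in AMPKα1-/- on the log2 scale with LPS, and by -0.23 and -0.28 with LPS + Dex against vehicle. Without the 9 or the 17 libraries the counts in WT were 7 and 6 of 9, and in AMPKα1-/- 6 and 6, where without the 17 Cd74 was lost and Cd86 passed the threshold at 1.44, a difference of 1 library against 1.

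Dex on top of LPS lowered Cd86, Cd40 and Cd274 in both genotypes. Against LPS alone, 3 of the 9 fell in WT with LPS + Dex (Cd86, Cd40 and Cd274) and none rose, with 34.1% of all genes called. In AMPKα1-/- the same 3 fell and Cd80 rose, with 37.7% called. These counts were near the share of all genes, so the number of calls is not particular to the set. The counts in WT were 3 and 3 without the 9 and the 17 libraries, and in AMPKα1-/- 4 and 3, Cd80 being lost without the 17 (0.79, adjusted p = 0.1004). Same-numbered AMPKα1-/- libraries deviated together in this comparison, and with the replicate number as a block 7 of the 9 were called there, the 3 class II chains joining the genes that fell. With the H2 class as a term H2-Ab1 and H2-Eb1 joined them. In WT, where libraries may share only a number, the block also called the 3 class II chains and Cd74 as lower and Cd80 as higher. The H2 class as a term gave WT the same added calls. Against vehicle, LPS + Dex left 3 of the 9 higher (Cd40, Cd80 and Cd274) and 5 lower (H2-Aa, H2-Eb1, Cd74, Ciita and Cd86) in WT, with 54.2% of all genes called. In AMPKα1-/- 2 were higher (Cd40 and Cd80) and the same 5 lower, with 57.4% called, and all 9 were called with the replicate block. Without the 9 or the 17 libraries the counts against vehicle were 7 and 7 in WT, Cd274 being lost, and 7 and 6 in AMPKα1-/-, Cd74 being lost without the 17 (-1.94, adjusted p = 0.178).

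H2-Aa, the α chain, showed the class II pattern at its plainest. In WT it stood at 425, 151 and 327 FPKM with vehicle, 15.1, 6.01 and 13.5 FPKM with Dex, 17.4 and 39.8 FPKM with LPS and 30.02, 3.13 and 24.4 FPKM with LPS + Dex. In libraries labelled AMPKα1-/- the values were 303, 375 and 1177 FPKM, 4.82, 23.6 and 54.9 FPKM, 31.3, 50.8 and 209 FPKM and 12.5, 23.1 and 134 FPKM in the same order of treatments. Every library with Dex, LPS or LPS + Dex lay below every vehicle library of its genotype, and the LPS and LPS + Dex libraries overlapped. The log2 fold change with Dex was -4.56 ± 0.89 (SE, adjusted p = 2.57e-04) in WT and -4.68 ± 0.89 (adjusted p = 1.86e-04) in AMPKα1-/-. With LPS it was -3.34 ± 0.99 (adjusted p = 0.00541) and -2.86 ± 0.89 (adjusted p = 0.00632). Dex on LPS gave -0.89 ± 0.99 (adjusted p = 0.537) in WT and -0.9998 ± 0.89 (adjusted p = 0.414, or 0.0496 with the replicate block) in AMPKα1-/-. For this step WT gave -1.21 with the replicate block (adjusted p = 0.0393) and -1.35 with the H2 class as a term (0.0307). The WT call with LPS was lost without LPS replicate 2 (-2.76, adjusted p = 0.0756).

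H2-Eb1, the β chain of the other class II molecule, moved with H2-Aa at a lower level. Its WT libraries held 204, 36.7 and 147 FPKM with vehicle, 5.46, 2.23 and 5.59 FPKM with Dex, 6.16 and 16.9 FPKM with LPS and 8.51, 0.963 and 7.66 FPKM with LPS + Dex. Those labelled AMPKα1-/- held 81.6, 128 and 688 FPKM, 1.02, 6.49 and 20.7 FPKM, 9.03, 16.8 and 80.9 FPKM and 2.32, 5.19 and 33.4 FPKM. Vehicle libraries again lay above those with Dex, LPS or LPS + Dex in their genotype, and the ratio of H2-Eb1 to H2-Aa stayed between 0.185 and 0.584 in all 35 libraries. The log2 fold changes with Dex were -4.34 ± 0.99 (adjusted p = 0.00137) in WT and -4.81 ± 0.99 (adjusted p = 4.64e-04) in AMPKα1-/-. With LPS they were -3.21 ± 1.11 (adjusted p = 0.0152) and -2.99 ± 0.99 (adjusted p = 0.0101). For LPS + Dex against LPS they were -1.05 ± 1.11 (adjusted p = 0.508) and -1.46 ± 0.99 (adjusted p = 0.269, or 0.00745 with the replicate block). For this step WT gave -1.39 with the replicate block (adjusted p = 0.0257) and -1.53 with the H2 class as a term (0.0221). In AMPKα1-/- that term gave an adjusted p of 0.0126. The LPS call was lost in WT without LPS replicate 2 (-2.55, adjusted p = 0.144) or vehicle replicate 1 (-2.73, adjusted p = 0.0624), and in AMPKα1-/- without LPS replicate 1 (-2.35, adjusted p = 0.06696) or vehicle replicate 3 (-2.08, adjusted p = 0.0917).

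H2-Ab1, the β chain that pairs with H2-Aa, fell with Dex like its partner and was not called with LPS. In WT it was at 451, 57.2 and 381 FPKM with vehicle, 15.6, 1.17 and 15.03 FPKM with Dex, 192 and 384 FPKM with LPS and 213, 23.4 and 158 FPKM with LPS + Dex. In AMPKα1-/- it was at 127, 143 and 1891 FPKM, 2.6997, 4.75 and 75.5 FPKM, 196, 226 and 1309 FPKM and 29.6, 49.3 and 514 FPKM. WT replicate 2 was the lowest library of its group in each of these treatments and AMPKα1-/- replicate 3 the highest, while the LPS libraries lay inside the vehicle range of their genotype. With Dex the log2 fold change was -4.696 ± 1.38 (adjusted p = 0.0107) in WT and -4.79 ± 1.38 (adjusted p = 0.00947) in AMPKα1-/-. With LPS it was 0.34 ± 1.54 (adjusted p = 0.873) and 0.25 ± 1.38 (adjusted p = 0.884), and the large SE of this unpaired fit leaves room for a change of several-fold either way. Within same-numbered AMPKα1-/- pairs the difference with LPS was -0.53, 0.62 and 0.66, from lowest to highest. In WT, where libraries may share only a number, it was 0.00975 and 1.73. LPS + Dex against LPS gave -1.53 ± 1.54 (adjusted p = 0.485) in WT and -2.07 ± 1.38 (adjusted p = 0.258) in AMPKα1-/-. Under the replicate block these were -2.09 (adjusted p = 0.00207) and -2.07 (adjusted p = 5.75e-04). The H2 class as a term gave -2.25 (adjusted p = 1.22e-04) and -2.07 (adjusted p = 6.21e-05). Against vehicle the block gave -1.2 (adjusted p = 0.0255) in WT and -1.82 (adjusted p = 0.00122) in AMPKα1-/-. The H2 class as a term gave -1.5 (adjusted p = 0.00162) and -1.82 (adjusted p = 1.67e-04). Without either, neither genotype was called against vehicle (adjusted p = 0.265 in AMPKα1-/-). The Dex call was lost in WT without Dex replicate 2 (-3.73, adjusted p = 0.0801) and in AMPKα1-/- without Dex replicate 1 (-3.96, adjusted p = 0.0598) or vehicle replicate 3 (-3.53, adjusted p = 0.0868).

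**Figure D1:**
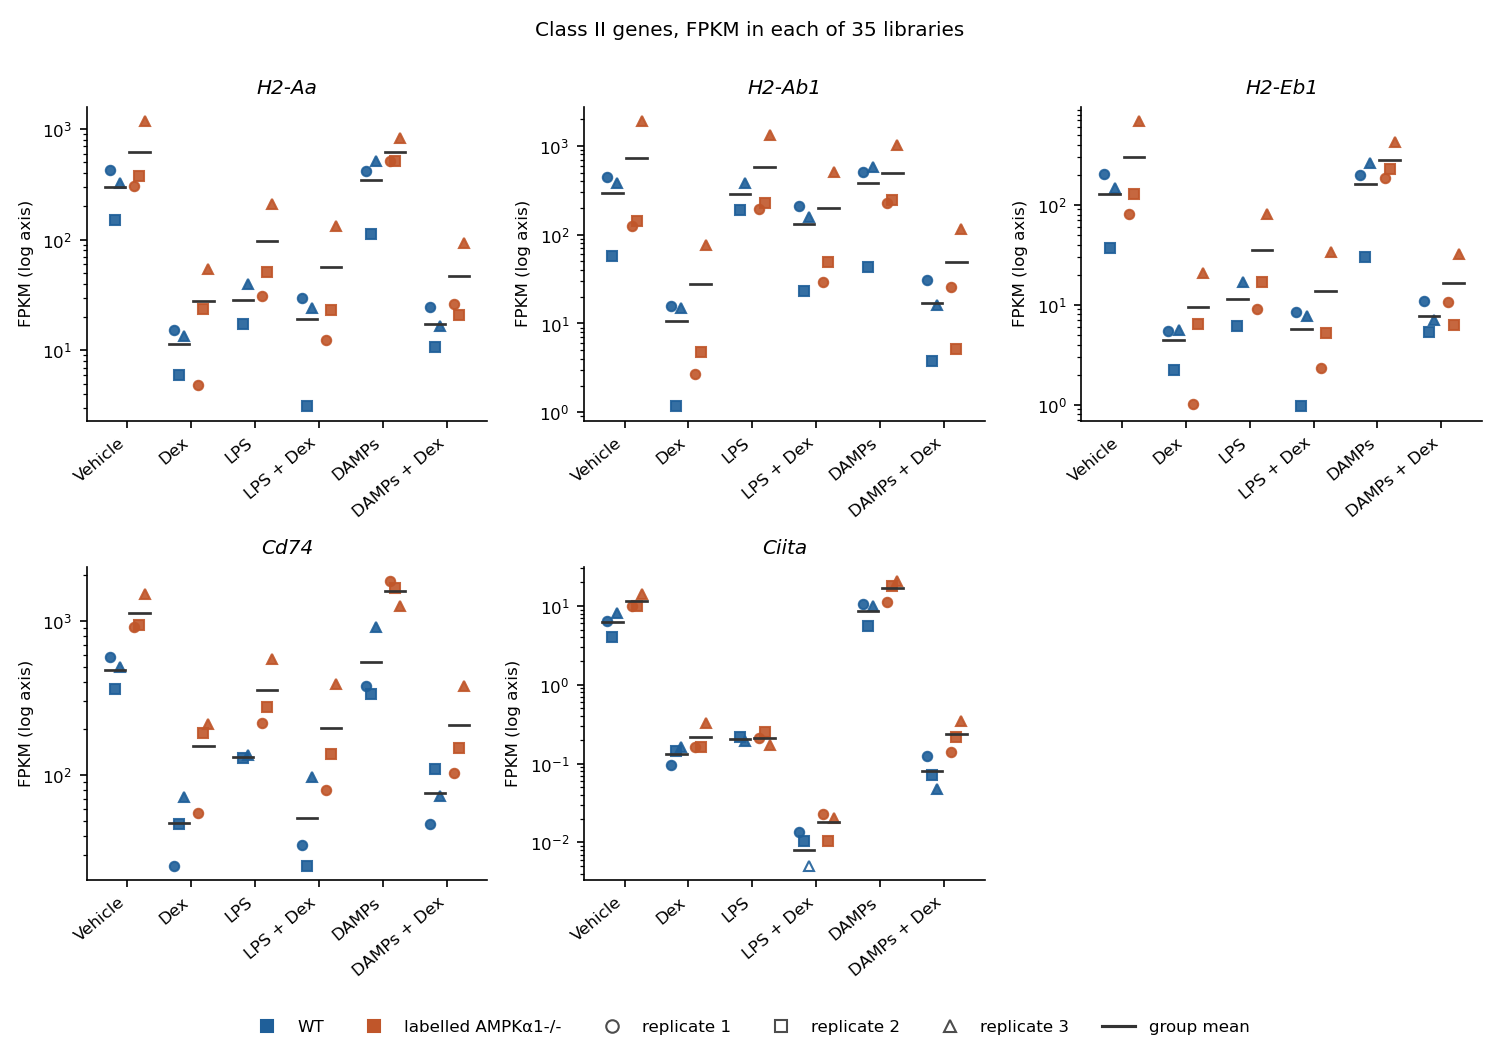
FPKM on a log axis of H2-Aa, H2-Ab1, H2-Eb1, Cd74 and Ciita in each of the 35 libraries, by treatment on the x axis, with WT and AMPKα1-/- in separate colours and a bar at the group mean. Within each genotype Dex lies below vehicle, and DAMPs + Dex below DAMPs, for all 5 genes, H2-Ab1 with LPS stays at the height of vehicle, and the open symbol is the WT LPS + Dex library with 0 FPKM of Ciita.

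The ratio of the paired chains within a library set the LPS groups apart. H2-Ab1 over H2-Aa, a ratio of FPKM, was 1.06, 0.379 and 1.16 in WT vehicle and 10.98 and 9.64 in WT LPS. In AMPKα1-/- it was 0.418, 0.3801 and 1.61 with vehicle and 6.26, 4.44 and 6.25 with LPS. With LPS + Dex it was 7.09, 7.48 and 6.49 in WT and 2.36, 2.13 and 3.84 in AMPKα1-/-. Every library with LPS, alone or with Dex, was thus above 2, and no library without LPS exceeded 1.61. Within vehicle the ratio split by H2 class, at 0.379 in WT replicate 2 and at 0.418 and 0.3801 in AMPKα1-/- replicates 1 and 2, which were low in H2-Q7, and at 1.06 to 1.61 in the other 3 vehicle libraries. The part of the H2 class in this ratio was not tested.

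**Figure D2:**
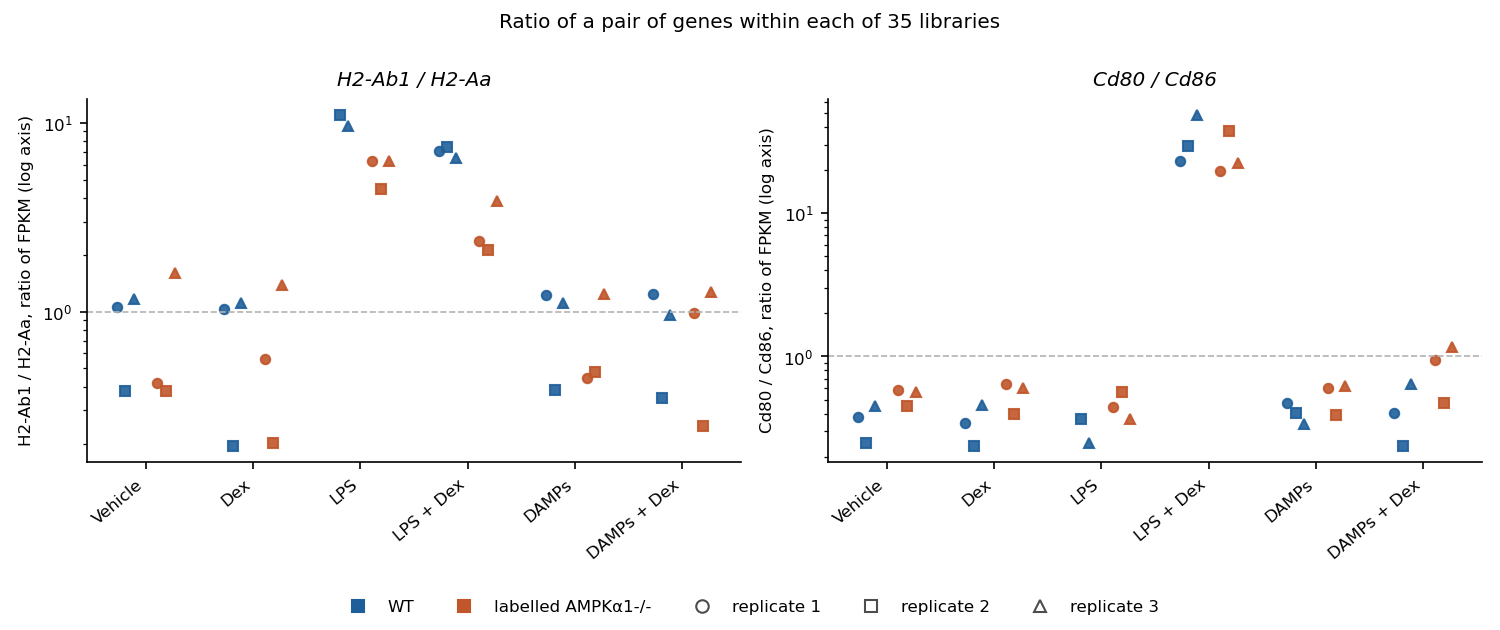
The ratio of H2-Ab1 to H2-Aa (left) and of Cd80 to Cd86 (right) in FPKM, on log axes, for each library by treatment, with the genotype labels in separate colours. The first ratio is above 2 in every library with LPS, and the other is at least 19.8 in every LPS + Dex library while all other libraries lie between 0.238 and 1.16.

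Cd74, the invariant chain, had the highest FPKM of the set on average over the 35 libraries, though Cd40, H2-Ab1 and Cd274 were above it in WT LPS. It kept a higher floor than the chains it escorts, with no library under 25.6 FPKM. WT libraries had 581, 363 and 499 FPKM with vehicle, 25.6, 47.97 and 72.1 FPKM with Dex, 128 and 135 FPKM with LPS and 35.3, 25.8 and 96.9 FPKM with LPS + Dex. AMPKα1-/- libraries had 913, 945 and 1502 FPKM, 56.2, 188 and 216 FPKM, 217, 277 and 566 FPKM and 80.1, 137 and 391 FPKM. No library with Dex, LPS or LPS + Dex reached the vehicle range of its genotype. Log2 fold changes were -3.37 ± 0.58 (adjusted p = 5.57e-05) with Dex and -1.84 ± 0.65 (adjusted p = 0.0173) with LPS in WT, and -3.04 ± 0.58 (adjusted p = 1.96e-04) and -1.75 ± 0.58 (adjusted p = 0.01003) in AMPKα1-/-. LPS + Dex against LPS gave -1.54 ± 0.65 (adjusted p = 0.0675) in WT and -0.99 ± 0.58 (adjusted p = 0.192) in AMPKα1-/-, and without WT LPS + Dex replicate 3 the WT difference was called (-2.09, adjusted p = 0.0171). It was also called with WT fitted alone (adjusted p = 0.0441), and the AMPKα1-/- difference was called without AMPKα1-/- LPS + Dex replicate 3 (-1.62, adjusted p = 0.0361). The WT difference was called with the replicate block (-1.36, adjusted p = 0.0318) and with the H2 class as a term (-1.62, 0.0428). The fall with LPS was near the threshold and kept its direction, with the WT call lost without LPS replicate 2 (adjusted p = 0.0791), LPS replicate 3 (0.0676) or vehicle replicate 1 (0.0515) and the AMPKα1-/- call lost without LPS replicate 1 (0.0546), at log2 fold changes of -1.799, -1.87, -1.69 and -1.46. Without the 17 libraries low in H2-Q7 neither was called (adjusted p = 0.105 and 0.318).

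Ciita, the regulator of the class II genes, went lowest of all where LPS and Dex were combined. In WT it was at 6.47, 4.01 and 8.05 FPKM with vehicle, 0.0955, 0.144 and 0.161 FPKM with Dex, 0.215 and 0.192 FPKM with LPS and 0.0135, 0.0103 and 0 FPKM with LPS + Dex. AMPKα1-/- libraries had 10.04, 10.1 and 14.2 FPKM, 0.163, 0.162 and 0.331 FPKM, 0.208, 0.248 and 0.172 FPKM and 0.02302, 0.0104 and 0.0206 FPKM. As recovered fragments, the 3 WT LPS + Dex libraries held 2, 1 and 0 and the 3 labelled AMPKα1-/- held 3, 1 and 2, against 24 and 24 in WT LPS and 24, 22 and 18 in AMPKα1-/- LPS. The groups did not overlap in either genotype, from vehicle to Dex or LPS and from LPS to LPS + Dex. The log2 fold changes with Dex were -2.62 ± 0.198 (adjusted p = 5.24e-11) in WT and -3.34 ± 0.198 (adjusted p = 3.69e-13) in AMPKα1-/-, and with LPS -2.53 ± 0.22 (adjusted p = 1.26e-10) and -3.35 ± 0.198 (adjusted p = 2.77e-14). On this scale of log2(FPKM + 1), which understates changes of low genes, LPS + Dex against LPS gave -0.26 ± 0.22 (adjusted p = 0.4097) and -0.25 ± 0.198 (adjusted p = 0.358). With a pseudocount of 0.1 the same differences were -1.49 (adjusted p = 0.00103) and -1.38 (adjusted p = 5.91e-04). No library with LPS alone or Dex alone was above 0.331 FPKM of Ciita, and in WT both LPS libraries were above the 3 Dex libraries. H2-Ab1 was high with LPS and low with Dex.

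The B7 ligands Cd80 and Cd86 parted ways under LPS + Dex. Cd86 was at 15.7, 18.02 and 11.6 FPKM with vehicle, 11.4, 13.6 and 12.5 FPKM with Dex, 18.9 and 35.7 FPKM with LPS and 0.572, 0.369 and 0.296 FPKM with LPS + Dex in WT. In AMPKα1-/- it was at 11.1, 15.01 and 10.8 FPKM, 11.9, 12.4 and 11.6 FPKM, 15.8, 12.3 and 31.1 FPKM and 0.821, 0.369 and 0.919 FPKM. Each of the 6 LPS + Dex libraries was under 1 FPKM and each of the other 29 was at 8.84 FPKM or more. LPS + Dex against LPS gave log2 fold changes of -4.26 ± 0.27 (adjusted p = 6.46e-13) in WT and -3.52 ± 0.24 (adjusted p = 2.80e-12) in AMPKα1-/-, and against vehicle -3.496 ± 0.24 (adjusted p = 1.43e-12) and -2.97 ± 0.24 (adjusted p = 4.02e-11). Dex without LPS gave -0.24 ± 0.24 (adjusted p = 0.4802) and -0.03 ± 0.24 (adjusted p = 0.949). LPS alone gave 0.77 ± 0.27 (adjusted p = 0.0186) in WT, where LPS replicate 3 was the high library and the call was lost without it (0.32, adjusted p = 0.443) or without vehicle replicate 3 (0.599, adjusted p = 0.0905). In AMPKα1-/- LPS gave 0.55 ± 0.24 (adjusted p = 0.0504), which was called with libraries centred on one median (0.83, adjusted p = 0.00781).

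Cd80 was highest where Cd86 was lowest. WT libraries held 5.95, 4.48 and 5.24 FPKM with vehicle, 3.91, 3.24 and 5.75 FPKM with Dex, 6.94 and 8.88 FPKM with LPS and 13.1, 10.8 and 14.3 FPKM with LPS + Dex. AMPKα1-/- libraries held 6.52, 6.77 and 6.14 FPKM, 7.68, 4.88 and 6.95 FPKM, 7.01, 6.99 and 11.4 FPKM and 16.2, 13.9 and 20.5 FPKM. In both genotypes every LPS + Dex library was above every LPS library, and every LPS library above every vehicle library. LPS + Dex against vehicle gave 1.14 ± 0.23 (adjusted p = 1.24e-04) in WT and 1.24 ± 0.23 (adjusted p = 3.98e-05) in AMPKα1-/-. Against LPS it gave 0.62 ± 0.26 (adjusted p = 0.0601), which centring the libraries took past the threshold (0.70001, adjusted p = 0.03301), and 0.93 ± 0.23 (adjusted p = 0.001698). LPS against vehicle gave 0.52 ± 0.26 (adjusted p = 0.0886) and 0.31 ± 0.23 (adjusted p = 0.241), and 0.67 (adjusted p = 0.0287) and 0.59 (adjusted p = 0.0287) once centred. In WT this step was also called with the replicate block (0.56, adjusted p = 0.0117). The ratio of Cd80 to Cd86 was 22.98, 29.3 and 48.3 in WT LPS + Dex and 19.8, 37.7 and 22.3 in AMPKα1-/- LPS + Dex, and no other library exceeded 1.16.

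Cd40, the receptor through which a T cell's CD40L acts on the macrophage, had the widest response to LPS of the set. In WT it went from 12.2, 14.04 and 12.5 FPKM with vehicle to 927 and 1356 FPKM with LPS, and it was at 5.15, 6.51 and 3.32 FPKM with Dex and 60.1, 47.7 and 80.01 FPKM with LPS + Dex. In AMPKα1-/- it went from 11.98, 11.3 and 8.36 FPKM to 588, 479 and 1748 FPKM, with 3.26, 4.999 and 2.43 FPKM under Dex and 41.5, 45.3 and 76.4 FPKM under LPS + Dex. The 4 groups stood in the same order in both genotypes, LPS over LPS + Dex over vehicle over Dex, with no overlap between neighbours. Log2 fold changes with LPS were 6.34 ± 0.36 (adjusted p = 1.43e-14) and 6.11 ± 0.32 (adjusted p = 1.80e-15), and Dex on LPS gave -4.17 ± 0.36 (adjusted p = 2.69e-10) and -3.89 ± 0.32 (adjusted p = 7.73e-11). Against vehicle, LPS + Dex was still higher by 2.16 ± 0.32 (adjusted p = 1.75e-06) in WT and 2.22 ± 0.32 (adjusted p = 9.92e-07) in AMPKα1-/-. Dex alone gave -1.25 ± 0.32 (adjusted p = 0.00363) and -1.36 ± 0.32 (adjusted p = 0.00168).

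Cd274, the ligand PD-L1, followed Cd40. It was at 18.9, 11.8 and 16.7 FPKM with vehicle, 8.47, 5.84 and 5.92 FPKM with Dex, 254 and 227 FPKM with LPS and 37.5, 18.6 and 20.9 FPKM with LPS + Dex in WT. Those labelled AMPKα1-/- had 10.5, 12.9 and 11.2 FPKM, 3.32, 3.33 and 4.69 FPKM, 125, 169 and 194 FPKM and 16.9, 18.95 and 15.03 FPKM. Among these 4 treatments LPS libraries were above all others and Dex libraries below all others of their genotype, while WT LPS + Dex overlapped WT vehicle. LPS gave 3.87 ± 0.28 (adjusted p = 2.82e-12) in WT and 3.69 ± 0.25 (adjusted p = 4.98e-13) in AMPKα1-/-, Dex on LPS -3.24 ± 0.28 (adjusted p = 3.41e-10) and -3.17 ± 0.25 (adjusted p = 3.93e-11), and Dex alone -1.11 ± 0.25 (adjusted p = 0.00123) and -1.397 ± 0.25 (adjusted p = 9.60e-05). LPS + Dex against vehicle gave 0.63 ± 0.25 (adjusted p = 0.0365) in WT, a call lost without LPS + Dex replicate 1 (0.33, adjusted p = 0.276), vehicle replicate 2 (0.44, adjusted p = 0.1795) or vehicle replicate 3 (0.67, adjusted p = 0.0521). It was also lost with no filter on low values (adjusted p = 0.0798) and with WT fitted alone (0.0929). In AMPKα1-/- it gave 0.52 ± 0.25 (adjusted p = 0.0779), or an adjusted p of 0.00588 with the replicate block, and was called with libraries centred on one median (0.81, adjusted p = 0.00309). Pdcd1lg2, the ligand PD-L2, was at 0.628, 0.4703 and 0.396 FPKM in WT vehicle, 0, 0.0328 and 0.0322 FPKM with Dex, 1.89 and 2.399 FPKM with LPS and 0.518, 0.594 and 0.477 FPKM with LPS + Dex. In AMPKα1-/- Pdcd1lg2 was at 0.674, 0.0996 and 0.144 FPKM, 0.0307, 0.0573 and 0.114 FPKM, 0.553, 1.83 and 1.41 FPKM and 0.221, 0.463 and 0.132 FPKM. No library had more than 94 fragments of Pdcd1lg2, the WT LPS libraries were above the other WT libraries, and in AMPKα1-/- the LPS and vehicle ranges overlapped.

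**Figure D3:**
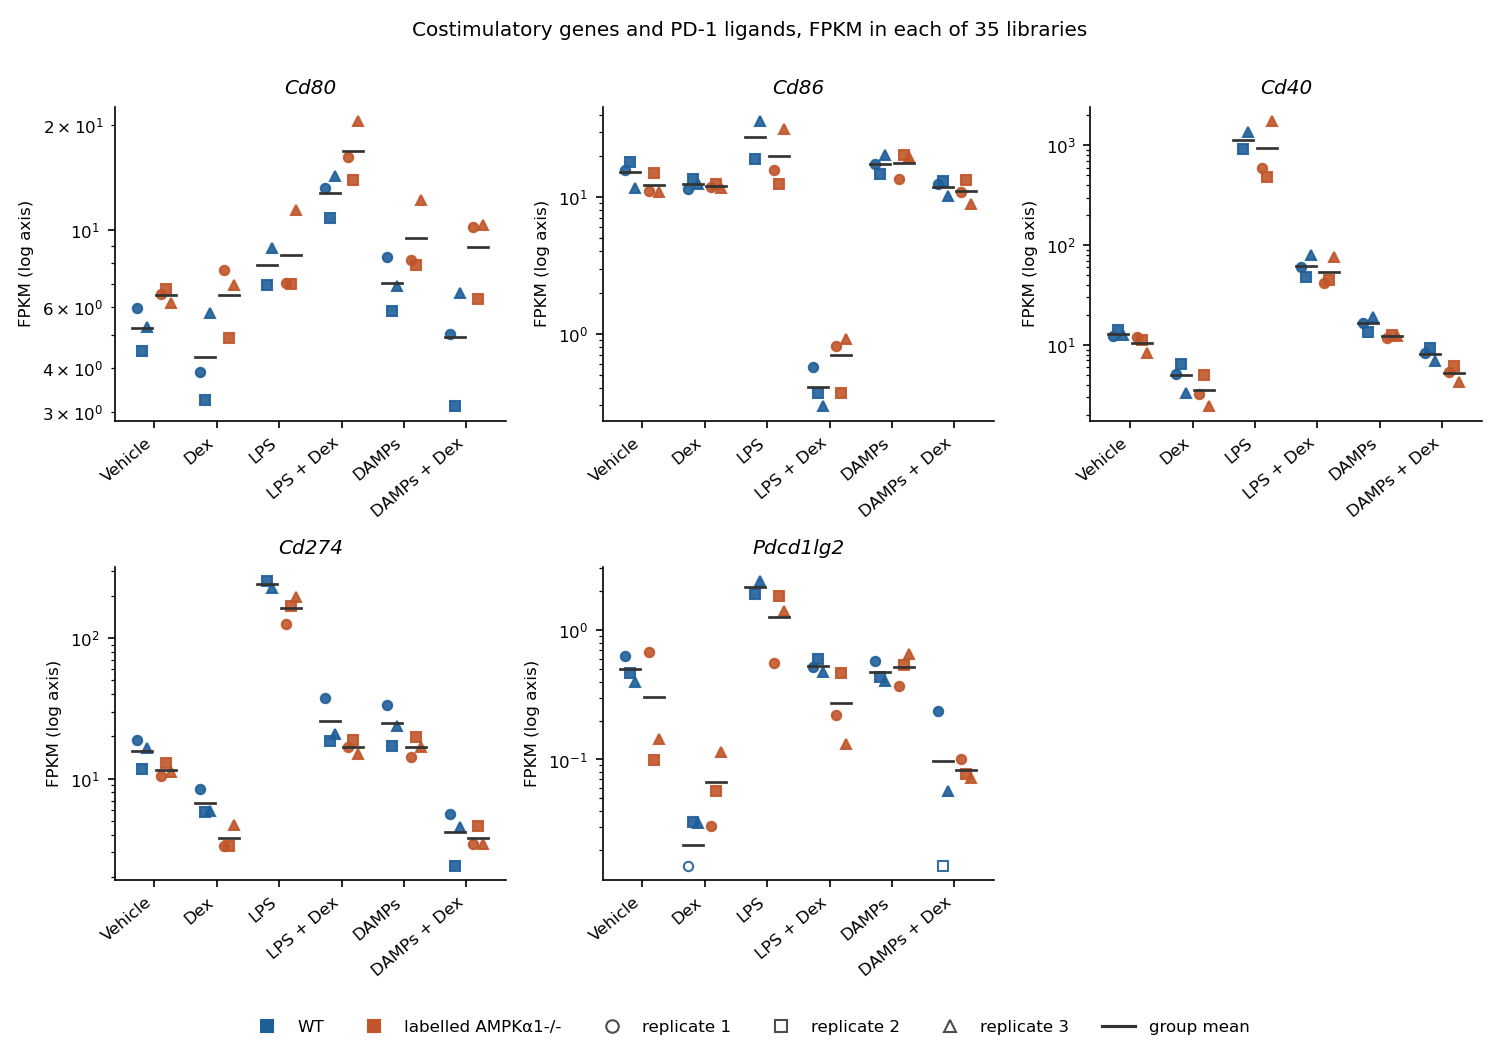
FPKM on a log axis of Cd80, Cd86, Cd40, Cd274 and Pdcd1lg2 in each library by treatment, with the genotype labels in separate colours and a bar at the group mean. Cd86 drops under 1 FPKM in the 6 LPS + Dex libraries, where Cd80 is at its highest within each genotype, Cd40 and Cd274 peak with LPS, and open symbols are libraries with 0 FPKM of Pdcd1lg2.

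Whether Dex acted alike with and without LPS was asked by the difference of the differences, LPS + Dex minus LPS minus Dex plus vehicle on the log2 scale. In WT, 5 of the 9 genes departed from a sum, 2 above it and 3 below it, with 32% of all genes called, and in AMPKα1-/- 6 did, 3 above and 3 below, with 28.4% called. The 3 below were Cd86, at -4.03 ± 0.37 (adjusted p = 2.72e-09) in WT and -3.49 ± 0.34 (adjusted p = 9.95e-09) in AMPKα1-/-, Cd40, at -2.92 ± 0.48 (adjusted p = 2.91e-05) and -2.53 ± 0.45 (adjusted p = 8.05e-05), and Cd274, at -2.13 ± 0.38 (adjusted p = 7.86e-05) and -1.78 ± 0.35 (adjusted p = 3.09e-04). For these the difference made by Dex was more negative on LPS than on vehicle. Above the sum were Ciita, at 2.37 ± 0.297 (adjusted p = 6.25e-07) and 3.09 ± 0.28 (adjusted p = 1.96e-09), H2-Aa, at 3.67 ± 1.33 (adjusted p = 0.0357) and 3.68 ± 1.25 (adjusted p = 0.0274), and, in AMPKα1-/-, Cd80 at 0.95 ± 0.32 (adjusted p = 0.0282). Ciita and H2-Aa were already low with LPS, and for Ciita the pseudocount also bounds how far a value can fall. With no filter on low values neither H2-Aa call was kept (adjusted p = 0.0756 in WT and 0.0664 in AMPKα1-/-). The H2-Aa calls were also lost without any of 6 single libraries in WT and any of 5 in AMPKα1-/- (adjusted p up to 0.163 without WT LPS replicate 2 and 0.103 without AMPKα1-/- LPS + Dex replicate 3). The Cd80 call was lost without AMPKα1-/- LPS replicate 1 or 2, Dex replicate 2, vehicle replicate 2 or LPS + Dex replicate 3 (adjusted p up to 0.0936), without the 9 libraries low in H2-Ea-ps (0.0667) or the 17 low in H2-Q7 (0.462). It was also lost with no filter on low values (adjusted p = 0.059) and with quantile normalization (0.0595). Without the 17, values of 3.76 for H2-Eb1 and 3.61 for H2-Ab1 in WT and 3.74 for H2-Eb1 in AMPKα1-/- passed the threshold, with 1 library in WT LPS and in each of the 4 AMPKα1-/- groups. Cd80 in WT was at 0.88 ± 0.34 (adjusted p = 0.0514) and was called with libraries centred on one median (1.04, adjusted p = 0.0199) and without any of 9 single libraries. With the replicate block H2-Ab1, H2-Eb1 and Cd74 were also called in AMPKα1-/-, at 2.73 (adjusted p = 0.00168), 3.36 (adjusted p = 1.11e-04) and 2.05 (adjusted p = 0.0119). In WT the block called H2-Ab1 (2.6, adjusted p = 0.00423), H2-Eb1 (2.95, 9.14e-04), Cd74 (2.01, 0.0188) and Cd80 (0.83, 0.00975). The H2 class as a term called H2-Ab1 and H2-Eb1 in both genotypes, Cd80 in WT and Cd74 in AMPKα1-/-. Cd74 in AMPKα1-/- was also called with quantile normalization (adjusted p = 0.0412), and Cd74 and H2-Eb1 there without some single libraries.

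DAMPs moved no gene of the set past the limma threshold, and Dex on DAMPs lowered the genes that Dex lowered on vehicle. Of the 9 tested genes none was called with DAMPs against vehicle in either genotype (2 in WT and 1 in AMPKα1-/- had an unadjusted limma p under 0.05), where 2.01% and 4.13% of all genes were called. At such shares a count of 0 of 9 is not particular to the set. In AMPKα1-/- every DAMPs library was above every vehicle library for 2 of the 9, Cd80 (0.46 ± 0.23, adjusted p = 0.395) and Cd274 (0.51 ± 0.25, adjusted p = 0.376), as for 6.7% of all tested genes, and in WT for none of the 9 (5.99% of all). Ciita, Cd80 and Cd274 were each higher in 3 of 3 same-numbered pairs in each genotype, which was not compared with all genes. In this comparison not every same-numbered pair deviated together, so the numbers may mark no pairing. Ciita (0.44 ± 0.198 and 0.49 ± 0.198, adjusted p = 0.437 and 0.225) passed the threshold without WT DAMPs replicate 2 (0.0497) or AMPKα1-/- DAMPs replicate 1 (0.0456). Cd274 in WT (0.59 ± 0.25, adjusted p = 0.356) passed it with the replicate block (0.0356). H2-Aa with DAMPs was at 417, 113 and 518 FPKM in WT and 514, 512 and 823 FPKM in AMPKα1-/-. With DAMPs + Dex it was at 24.9, 10.8 and 16.7 FPKM and 26.1, 20.8 and 92.7 FPKM. H2-Ab1 went from 512, 43.7 and 576 FPKM with DAMPs to 30.8, 3.77 and 15.9 FPKM with DAMPs + Dex in WT, and from 228, 245 and 1017 FPKM to 25.7, 5.15 and 117 FPKM in AMPKα1-/-. In each genotype 7 of the 9 fell with DAMPs + Dex against DAMPs, with 24.3% of all genes called in WT and 25.3% in AMPKα1-/-. In each genotype every DAMPs + Dex library was below every DAMPs library for 8 of the 9, against 17.1% of all tested genes in WT and 16.8% in AMPKα1-/-, and for Pdcd1lg2 as well. The Cd74 call was lost in AMPKα1-/- without the 17 libraries low in H2-Q7 (-2.65, adjusted p = 0.114). Ciita went from 10.6, 5.63 and 9.87 FPKM to 0.124, 0.07196 and 0.0476 FPKM in WT (-3.12 ± 0.198, adjusted p = 1.24e-12) and from 11.4, 18.1 and 20.7 FPKM to 0.141, 0.216 and 0.347 FPKM in AMPKα1-/- (-3.81 ± 0.198, adjusted p = 2.22e-14). Cd274 went from 33.4, 17.2 and 23.6 FPKM to 5.61, 2.401 and 4.56 FPKM in WT (-2.32 ± 0.25, adjusted p = 4.28e-08) and from 14.2, 19.8 and 16.9 FPKM to 3.43, 4.58 and 3.45 FPKM in AMPKα1-/- (-1.89 ± 0.25, adjusted p = 1.19e-06). The 2 called in neither genotype were again the B7 ligands, Cd80 at -0.48 ± 0.23 and -0.08 ± 0.23 and Cd86 at -0.52 ± 0.24 and -0.64 ± 0.24, with adjusted p from 0.0542 to 0.849. In WT Cd80 was called with the replicate block (adjusted p = 0.0298), with the H2 class as a term (0.0226) and without DAMPs + Dex replicate 3 (0.0474). Log2 fold changes of the other called genes were -4.05 and -3.98 for H2-Aa, -3.79 and -4.22 for H2-Eb1, -2.73 and -3.09 for Cd74, -4.11 and -3.84 for H2-Ab1 and -0.92 and -1.096 for Cd40. The H2-Ab1 call was lost without any of WT DAMPs replicates 1 and 3 and WT DAMPs + Dex replicates 2 and 3 (adjusted p up to 0.1401) and, in AMPKα1-/-, without any DAMPs library or DAMPs + Dex replicates 1 and 2 (up to 0.196), and the Cd40 call without WT replicate 1 or 3 of either treatment (up to 0.113) or AMPKα1-/- DAMPs + Dex replicate 3 (0.0554). With no filter on low values H2-Ab1 was lost in both genotypes (adjusted p = 0.0721 and 0.098) and Cd40 in WT (0.0777). The WT Cd40 call was also lost with libraries centred on one median (-0.93, adjusted p = 0.0523), and the AMPKα1-/- H2-Ab1 call with that genotype fitted alone (0.0526). Cd86 in AMPKα1-/- (adjusted p = 0.0542) was called with quantile normalization (-0.71, adjusted p = 0.0397) and without any of 6 single libraries.

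Libraries labelled AMPKα1-/- had a higher mean of Cd74 than WT in every treatment, with or without any 1 replicate number, while the direction for H2-Ab1 rested on AMPKα1-/- replicate 3, and few differences between the genotypes passed a test. The mean FPKM of H2-Aa, H2-Ab1, H2-Eb1, Cd74, Ciita and Cd80 was higher in 6 of 6 treatments, by 1.76 to 3.39-fold for H2-Aa and 2.33 to 3.85-fold for Cd74, and that of Cd40 and Cd274 was lower in 6 of 6. Without AMPKα1-/- replicate 3, a setting chosen after seeing the data, the mean of H2-Ab1 was instead lower than in WT in 6 of 6 treatments (0.3001 to 0.916 of WT) and that of H2-Eb1 in 3 of 6. H2-Aa was then higher in 5 of 6 at 0.929 to 1.47 times WT, Cd80 in 5 of 6, and Cd74 in 6 of 6 at 1.64 to 3.18 times WT. Cd40 was lower in 4 of 6 without WT replicate 3 and in 5 of 6 without AMPKα1-/- replicate 2, and Cd274 in 5 of 6 without WT replicate 1. Ciita was higher in 5 of 6 without WT replicate 3 or without AMPKα1-/- replicate 2. Without WT replicate 2, H2-Ab1 and Cd80 were each higher in 5 of 6. Whether libraries of the 6 treatments come from the same mice is not given in the sources used here, so the 6 are not taken as independent repeats. With vehicle none of the 9 was called (2 under an unadjusted p of 0.05, 0.432% of all genes called), and Ciita (0.82, adjusted p = 0.0592) was called with quantile normalization (adjusted p = 0.033) and without any of 3 single libraries. With Dex Cd74 was higher (1.54 ± 0.58, adjusted p = 0.0489) and Cd274 lower (-0.69 ± 0.25, adjusted p = 0.0432) in AMPKα1-/-, where 26.5% of all genes were called. That share rested on single libraries, since the count went from 3008 genes to 304 without WT Dex replicate 2, 308 without AMPKα1-/- Dex replicate 2 and 1662 without WT Dex replicate 1. With DAMPs Ciita was higher (0.87 ± 0.198, adjusted p = 0.0318), at 10.6, 5.63 and 9.87 FPKM in WT and 11.4, 18.1 and 20.7 FPKM in AMPKα1-/-, with 0.731% called. None of the 9 was called with LPS (1 unadjusted, 0.766% of genes), LPS + Dex (1 unadjusted, 0.669%) or DAMPs + Dex (2 unadjusted, 1.06%). The Cd74 call was lost in 20 of the 35 fits that left out 1 library (adjusted p up to 0.212 without AMPKα1-/- Dex replicate 2), the Cd274 call without replicate 1 or 2 of either Dex group (up to 0.173), and the Ciita call without AMPKα1-/- DAMPs replicates 2 or 3 or WT DAMPs replicate 2 (up to 0.253). With libraries centred on one median Cd274 with Dex was no longer called (-0.53, adjusted p = 0.068), nor with quantile normalization (-0.48, adjusted p = 0.118), while Cd80 with Dex was (0.67, adjusted p = 0.031, and 0.72, adjusted p = 0.0195), and the median of all genes differed by -0.09 there. With no filter on low values all 3 genotype calls were lost (adjusted p = 0.102 for Cd74, 0.0854 for Cd274 and 0.0582 for Ciita), and with a pseudocount of 0.1 those of Cd74 (0.0515) and Ciita (0.263). The H2 classes were spread unevenly over the genotypes, with 6 WT and 11 AMPKα1-/- libraries low in H2-Q7, and without those 17 no genotype call remained in the set, while without the 9 low in H2-Ea-ps 1 remained (Cd274 with Dex). With the H2 class as a term no call was lost, and those gained were all higher in AMPKα1-/- (adjusted p = 0.00751 to 0.0464). They were Ciita with vehicle, H2-Aa, H2-Ab1 and Cd80 with Dex, H2-Ab1 and H2-Eb1 with DAMPs, and Cd80 with DAMPs + Dex. No interaction of genotype and treatment passed the test in the set. For LPS against vehicle, LPS + Dex against LPS, Dex against vehicle, LPS + Dex against vehicle, DAMPs against vehicle and DAMPs + Dex against DAMPs, 0 of the 9 were called, with 1, 0, 1, 1, 0 and 1 under an unadjusted limma p of 0.05, and the share of all genes called was 0.0793% for LPS + Dex against vehicle and 0% for the other 5.

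Genes that act with the set were taken from lists of companions, of which only part could be tested. Of the 14 measured genes of class II peptide loading and assembly 13 were tested, and with LPS against vehicle 2 rose and 6 fell in WT (median log2 fold change -1.75, all genes -0.19, 55.7% of all genes called) and 2 rose and 8 fell in AMPKα1-/- (64.3% called). The number of calls was near that of all genes. The 2 that rose were H2-Ob and H2-Oa, the chains of H2-DO, the brake on peptide exchange. H2-Ob was at 0.169 ± 0.121 FPKM (SD, n = 3) with vehicle, 31.9 ± 3.08 FPKM (n = 2) with LPS and 2.4999 ± 1.26 FPKM (n = 3) with LPS + Dex in WT, with log2 fold changes of 4.81 for LPS and -3.299 for Dex on LPS. H2-DMa, the α chain of H2-DM, was instead at 50.7 ± 7.02 FPKM with vehicle, 5.57 ± 2.15 FPKM with Dex, 15.6 ± 9.62 FPKM with LPS and 10.9 ± 4.798 FPKM with LPS + Dex. The promoters printed above for H2-Ob, H2-Oa and H2-Aa hold the same boxes, and H2-Aa fell where H2-Ob and H2-Oa rose. Lgmn, the legumain that trims endosomal proteins, went from 802 ± 55.5 FPKM with vehicle to 132 ± 51.3 FPKM with LPS (-2.65, adjusted p = 3.41e-11), and Ifi30, the thiol reductase of the endosome, from 322 ± 15.5 FPKM to 52.3 ± 7.06 FPKM (-2.603, adjusted p = 4.45e-12) and up again to 121 ± 27.9 FPKM with LPS + Dex (1.17, adjusted p = 1.88e-05). H2-Oa was at 0.243 ± 0.194 FPKM with vehicle and 5.34 ± 2.54 FPKM with LPS (2.302, adjusted p = 0.00171). With Dex against vehicle 1 of the 13 rose and 4 fell in WT (30.9% of all genes called), and 1 rose and 1 fell in AMPKα1-/- (27.9%).

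Of 23 transcription factors and inducers of class II 20 were tested, and 7 rose and 4 fell with LPS in WT (6 and 4 in AMPKα1-/-), while with Dex on LPS 1 rose and 10 fell in each genotype (medians -0.48 and -0.31, all genes -0.03 and 0.01). All genes were called at 55.7% and 64.3% with LPS and 34.1% and 37.7% with Dex on LPS. These shares are also the background of the next 3 lists. Socs1, an inhibitor of cytokine signalling, went from 0.193 ± 0.0136 FPKM with vehicle to 142 ± 8.03 FPKM with LPS and back to 22.9 ± 10.1 FPKM with LPS + Dex in WT. Jak2, a kinase of the interferon-γ receptor, went from 8.101 ± 0.975 FPKM to 138 ± 19.2 FPKM and 51.4 ± 18.1 FPKM. Ifng and Ifnb1, the interferons, averaged 1.25 ± 0.108 and 0.785 ± 0.398 FPKM in WT LPS and were too low to be tested. Nlrc5, the regulator of class I genes that is related to CIITA, rose from 9.47 ± 1.38 FPKM to 40.9 ± 1.81 FPKM with LPS, where Ciita fell, and was at 5.41 ± 0.718 FPKM with LPS + Dex. Of 19 other ligands of the B7 and TNF families and adhesion molecules 12 were tested, of which 9 rose and 2 fell with LPS in WT and in AMPKα1-/- alike, and 2 rose and 7 fell with Dex on LPS in WT (2 and 8 in AMPKα1-/-). Cd200, a ligand that restrains myeloid cells, went from 67.4 ± 15.99 FPKM with LPS to 0.209 ± 0.139 FPKM with LPS + Dex in WT (-5.81, adjusted p = 3.06e-15), and Cd83, which is known to hold class II and CD86 on the cell surface, from 23.3 ± 9.73 FPKM to 0.152 ± 0.0217 FPKM (-4.34, adjusted p = 5.56e-13). Slamf1, a self-binding receptor of the SLAM family, went from 18.9 ± 2.52 FPKM to 0.4899 ± 0.406 FPKM (-3.77, adjusted p = 1.33e-15). Icosl, the ligand of ICOS, behaved otherwise, at 4.17 ± 0.633 FPKM with vehicle, 64.6 ± 5.35 FPKM with LPS and 82.5 ± 17.7 FPKM with LPS + Dex, with no call for the last step in either genotype. Of the 5 tested genes of CD40 signalling 4 rose with LPS in WT and 3 in AMPKα1-/-, and 5 and 4 fell with Dex on LPS, among them Traf1 at 289 ± 30.9 FPKM with LPS and 126 ± 47.996 FPKM with LPS + Dex and Traf6 at 23.05 ± 1.97 and 6.26 ± 1.72 FPKM. Among the T cell partners Cd28 and Cd4 could be tested, and both fell with LPS, Cd28 from 14.8 ± 2.74 FPKM to 0.0208 ± 0.0294 FPKM (-3.94) and Cd4 from 16.5 ± 1.26 FPKM to 0.959 ± 0.316 FPKM (-3.16) in WT.

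As a description over the 12 group means, which share libraries, depth and treatments, H2-Aa had a Pearson correlation of 0.994 with H2-Eb1, 0.967 with Cd74 and 0.951 with Ciita on the log2 scale, but only 0.738 with H2-Ab1. Cd40 and Cd274 were at 0.957, and Cd80 and Cd86 at -0.692. Among 11325 genes outside the set the patterns nearest to the mean of the class II genes were those of Maged2 (0.952), H2-DMa (0.9497), Lca5 (0.9398), Slc46a1 (0.935) and Slc16a5 (0.9297), and nearest to Cd274 were Gbp3 (0.986), Snrnp35 (0.985), Il1rn (0.984), Helz2 (0.982) and Trim21 (0.982).

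Markers of other cells were read beside these values. All 8 macrophage markers averaged at least 1 FPKM in every group, their sum was 12951 to 39177 FPKM over libraries, and Lyz2 led it. Of 8 dendritic cell markers 5 were under 1 FPKM in every library (Cd209a at 0, Clec9a, Flt3, Itgae and Zbtb46), and the sum was 8.44 FPKM in WT vehicle, 2.504 with Dex, 86.1 with LPS and 39.3 with LPS + Dex, led by Ccr7 with LPS and by Batf3 in the other 3. Of 6 B cell markers 3 were under 1 FPKM in every library (Cd79a, Ms4a1 and Pax5), while Ighm was at 70.7 ± 2.92 FPKM in WT vehicle, 12.4 ± 2.86 with Dex and 1.703 ± 0.158 with LPS, moving the way of the class II genes. All 6 T and NK cell markers were under 1 FPKM in every library, with a highest sum of 0.486 FPKM. Of 8 neutrophil markers 4 were under 1 FPKM in every library (Elane, Ly6g, Mpo and Retnlg), but the sum was 788 FPKM in WT LPS + Dex, led by S100a8, against 143 with LPS, led by Camp, and 12.3 with vehicle, and 432, 136 and 20.8 FPKM in AMPKα1-/-. In WT LPS + Dex S100a8 alone was at 747 FPKM and Camp at 39.9 FPKM, against 5.55 and 0.639 FPKM with vehicle. S100a9 and Ngp went the other way, at 0.527 and 0.0461 FPKM against 4.22 and 1.9 FPKM with vehicle. Of 6 stromal markers Pdgfra was under 1 FPKM in every library, and the sum was 9.85 FPKM in WT vehicle and 1.77 in AMPKα1-/- vehicle, led by Col1a2 and Col1a1. The part of these markers in the results was not tested.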

How the data were processed

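RNA-seq of 35 BMDM libraries was analysed from 1 deposited table per library, in which the authors give FPKM per Ensembl gene. The submitters' processing notes name Bowtie2 2.2.3, TopHat2 2.0.12, HTSeq 0.6.1, DESeq2 and GRCm38/mm10, with no role or order, and whether the counting used strand is not given in the sources used here. Library totals (15837203 to 31955298 fragments) were solved from single-fragment FPKM steps, with 55.8 to 64.2% of values of a few fragments within 0.001 of a whole number over GENCODE gene lengths, so a count test was not run. Symbols matched 46488 of 47069 identifiers. Groups and replicate numbers came from the sample labels. Genes with a mean of at least 1 FPKM over all libraries (11354) were tested on log2(FPKM + 1) with limma 3.58.1 (R 4.3.3, trended variance, 1 fit over 12 groups, Benjamini-Hochberg adjustment, threshold 0.05), a step checked on simulated data, and summaries used Python 3.11.15. P-values of this fit rest on 1 spread per gene, pooled within groups over all 12 groups, and not on the spread of the groups compared alone. Same-numbered libraries deviated together in all 3 pairs (correlation over 0.1 of deviations from group means) in 4 AMPKα1-/- comparisons, at 0.24, 0.12 and 0.32 between vehicle and LPS, 0.37, 0.37 and 0.36 between LPS and LPS + Dex, 0.304, 0.22 and 0.3998 between vehicle and Dex, and 0.25, 0.33 and 0.36 between vehicle and LPS + Dex, and blocked values stand beside those results where a call changed. The 10 genes and the companion and marker lists were chosen with earlier results of these data known, and up to 3 companions with the largest called log2 fold change in each direction were named from each list, from the responses to LPS and to Dex on LPS.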

Additional observations from a re-analysis of the deposited data

How the results depend on the processing

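Over 45 settings and 234 results for single genes none changed direction past a threshold, and of 10396 values 108 lost a call and 122 gained one. A further 83, not called in either fit, moved by more than their SE, 38 of them without the 17 libraries low in H2-Q7 and 13 without the 9 low in H2-Ea-ps. Leaving out 1 library at a time gave 4 to 7 genes called for LPS against vehicle in WT (7 with all libraries, 4 without LPS replicate 2), 3 to 4 for LPS + Dex against LPS in WT and 4 to 5 in AMPKα1-/-, 0 to 1 for DAMPs against vehicle in WT (without DAMPs replicate 2) and in AMPKα1-/- (without DAMPs replicate 1), 1 to 4 for the 6 comparisons of genotype and 9 to 14 for the non-additive terms of both genotypes. For LPS + Dex against LPS in WT 3 genes were called, but 8 with the replicate block and 8 with the H2 class as a term. The block also gave 7 in place of 4 for LPS + Dex against LPS in AMPKα1-/-, 1 in place of 0 for DAMPs against vehicle in WT (Cd274), 8 in place of 7 for DAMPs + Dex against DAMPs in WT (Cd80), 7 in place of 3 for the genotype comparisons and 18 in place of 11 for the non-additive terms, and outside the 4 AMPKα1-/- comparisons the libraries may share only a number. In WT the block added Cd80 for LPS against vehicle and H2-Ab1 for LPS + Dex against vehicle. For LPS + Dex against vehicle in AMPKα1-/- it added H2-Ab1 and Cd274. With the block no gene's call changed for LPS or Dex against vehicle in AMPKα1-/-. The 3 genotype calls became 1 with a pseudocount of 0.1, 0 with no filter on low values, 1 without the 9 libraries low in H2-Ea-ps, 0 without the 17 low in H2-Q7 and 10 with the H2 class as a term, and the non-additive count became 17 with that term. The H2 settings were chosen after seeing the data, and the cause was not tested for any of these changes. Depth limits Ciita with LPS + Dex and Pdcd1lg2, which rest on few fragments, and WT LPS has 2 libraries.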

Other observations

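Some companion genes, picked here after their values were seen, differed from the class II genes in at least 1 response. Ifngr1, the ligand-binding chain of the interferon-γ receptor, was at 323 ± 39.7 FPKM with vehicle, 1287 ± 51.4 FPKM with Dex, 54.9 ± 3.26 FPKM with LPS and 334 ± 77.97 FPKM with LPS + Dex in WT (mean ± SD, n = 3, and n = 2 for LPS). Its log2 fold change with Dex was 1.999 ± 0.13 (limma adjusted p = 1.89e-12) in WT and 2.15 ± 0.13 (adjusted p = 3.69e-13) in AMPKα1-/-, and with LPS it was -2.53 ± 0.14 (adjusted p = 1.56e-14) and -2.46 ± 0.13 (adjusted p = 1.65e-15). Ifngr2, the signalling chain of the same receptor, was at 102 ± 5.597 FPKM with vehicle, 69.6 ± 5.75 FPKM with Dex, 176 ± 6.53 FPKM with LPS and 123 ± 6.498 FPKM with LPS + Dex, with a log2 fold change for Dex of -0.54 ± 0.09 (adjusted p = 2.58e-05) in WT and for LPS of 0.79 ± 0.098 (adjusted p = 8.41e-08).

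Vsir, which encodes the checkpoint ligand VISTA, was at 355 ± 26.7 FPKM with vehicle, 341 ± 18.8 FPKM with Dex, 76.2 ± 0.155 FPKM with LPS and 230.2 ± 44.7 FPKM with LPS + Dex in WT, so that LPS lowered it (-2.202 ± 0.16, adjusted p = 2.75e-12) and Dex on LPS raised it (1.56 ± 0.16, adjusted p = 7.35e-09), with -1.902 and 1.08 in AMPKα1-/-, the reverse of Cd274. Nectin2, a ligand of CD226 and TIGIT, was at 8.75 ± 2.11 FPKM with vehicle, 7.59 ± 1.18 FPKM with Dex, 33.5 ± 11.5 FPKM with LPS and 54.4 ± 7.58 FPKM with LPS + Dex and rose at both steps (1.804 ± 0.19, adjusted p = 6.45e-09, and 0.71 ± 0.19, adjusted p = 0.00465). Of the endosomal proteases, Ctsl rose with Dex alone, from 1352 ± 184 FPKM in vehicle to 2374 ± 215 FPKM in Dex (0.82 ± 0.16, adjusted p = 2.86e-04), and Ctss, the cathepsin that trims CD74, was not called, at 2416 ± 243 FPKM and 2244 ± 307 FPKM (-0.11 ± 0.18, adjusted p = 0.656).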
